A study of Caenorhabditis elegans with 2 samples.

Results

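The 5 protein-coding genes described here, ant-1.1, icd-2, hrpa-1, nap-1 and zip-2, were chosen by name because each has a strong region of T26A5.8 chromatin immunoprecipitation sequencing (ChIP-seq) signal near its end. They are 5 of the 19973 protein-coding genes on the 6 nuclear chromosomes of Caenorhabditis elegans. The libraries came from 1 group of worms, strain OP598, in which an integrated transgene (wgIs598) adds T26A5.8 with GFP and FLAG at its C-terminus on an unc-119(tm4063) background, and DNA was recovered with an antibody against GFP. Whole young adults of mixed sex were collected 63 h after release from arrest as starved L1 larvae, as 2 biological replicates numbered 3 and 4, and no condition was compared with another. Tissues were not separated, so a region cannot be placed in a cell type, and the tagged protein came from a transgene in a single strain. Control libraries were not analysed here.

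ChIP-seq recovers DNA that lies close to a tagged protein, and the summit of a region is the base at which recovered DNA was most abundant. At the end of a protein-coding gene the message is cleaved and given a poly(A) tail shortly after an AATAAA-like signal, while RNA polymerase runs on past that point before it stops. Worm genes are closely packed, and the end of a gene is often near the start of the next gene on the same strand or faces the end of a gene on the other strand. The values available for a gene end were the authors' signal in the thresholded list of regions ranked alike in replicates, in the pooled list, and in the list of each replicate. The scaling of the signal is not stated and read depth is unknown because the lists hold no counts, so ranks within a list, with rank 1 the highest, are given beside each signal.

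The stretches of sequence below are those that separate the member genes from their closest neighbours and those under the summits, read 5′ to 3′ on the strand of the member gene from the reference genome (build ce11, WBcel235). They are shown because 4 of the 5 member genes end less than 100 bp from the next protein-coding gene, and the sequence between the genes is short enough to print. The gap between ant-1.1 and cdk-5 is 34 bp (chrIII:13464653-13464686, plus strand) and capitals mark the bases inside the thresholded region. The gap between hrpa-1 and F42A6.6 is 46 bp (chrIV:3336874-3336919, minus strand). It lies wholly inside the thresholded region and is printed in lower case, since capitals do not mark the region in this stretch. In the 101 bp around the hrpa-1 summit (chrIV:3336745-3336845, minus strand), capitals mark the 11 bases centred on the summit. For nap-1 the 169 bp shown (chrIV:8377536-8377704, minus strand) start at the base after the gene, and capitals mark the ATG at the start of the coding sequence of D2096.7 and the 11 bases centred on the summit. In the 101 bp around the zip-2 summit (chrIII:836025-836125, plus strand), capitals mark the 11 bases centred on the summit.
ant-1.1 to cdk-5 gap: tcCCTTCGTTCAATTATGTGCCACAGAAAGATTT
hrpa-1 to F42A6.6 gap: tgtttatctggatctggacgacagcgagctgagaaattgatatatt
hrpa-1 summit: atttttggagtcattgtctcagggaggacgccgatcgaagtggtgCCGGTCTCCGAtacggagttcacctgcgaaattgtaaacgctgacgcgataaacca
nap-1 gap and summit: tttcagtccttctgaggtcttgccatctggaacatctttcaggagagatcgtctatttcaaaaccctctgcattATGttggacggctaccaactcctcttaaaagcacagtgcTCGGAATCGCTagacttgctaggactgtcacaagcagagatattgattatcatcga
zip-2 summit: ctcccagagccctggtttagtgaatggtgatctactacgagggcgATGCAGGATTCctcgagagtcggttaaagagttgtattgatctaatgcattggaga

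A summit was assigned to a gene end when it lay between 200 bp inside and 500 bp past the annotated end. All 5 member genes had a thresholded summit there, which is how they were chosen, against 199 of all 19973 protein-coding genes (0.996%). None of the 5 had a thresholded summit in its own start window, from 1000 bp upstream to 200 bp downstream of the gene start, against 161 of all protein-coding genes (0.806%). The thresholded list held 1 region for each member between 1000 bp upstream of its start and 500 bp past its end, and that region was the one at the end. The signals, ranks and distances of the members below describe the choice and were not tested.

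ant-1.1 encodes a mitochondrial ADP/ATP carrier, which exchanges ADP and ATP across the inner membrane. The gene (WBGene00006439) lies at chrIII:13463163-13464652 on the plus strand, is 1490 bp long and has 1 annotated transcript. Its region, at chrIII:13464655-13464779, was 125 bp wide with the summit 93 bp past the gene end. The signal was 221.2 in the thresholded list, where it ranked 9 of 369, and 223.0 in the pooled list, where it ranked 10 of 30000. In replicate 3 the signal was 103.9 at rank 24, and in replicate 4 it was 135.0 at rank 3. The entry was thus among the first 25 of both replicates, but its summit lay 103 bp past the end in replicate 3 and 31 bp past it in replicate 4. That gap of 72 bp was the widest between replicates among the 5 genes. Replicate 4 also listed a second entry at this end, with its summit 232 bp past the gene, a signal of 35.3 and rank 659.

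icd-2 encodes the alpha subunit of the nascent polypeptide-associated complex, which binds new chains as they leave the ribosome. The gene (WBGene00022042) lies at chrI:535791-536587 on the plus strand and, at 797 bp, is the shortest of the 5. Its region, at chrI:536729-537088, was 360 bp wide, and the summit lay 322 bp past the gene end, farther than at any other member. A width of 360 bp was both the median and the highest among all 369 thresholded regions. The signal was 186.9 at rank 22 in the thresholded list and 189.0 at rank 16 in the pooled list. In replicate 3 it was 111.6 at rank 15, and in replicate 4 it was 78.1 at rank 27. The replicates placed the summit 315 and 313 bp past the end, a difference of 2 bp and the closest placement among the members.

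hrpa-1 encodes an RNA-binding protein of the heterogeneous nuclear ribonucleoprotein (hnRNP) A1 type, a family that packages nascent messages and takes part in splicing. The gene (WBGene00001999) lies at chrIV:3336920-3338867 on the minus strand and has 10 annotated transcripts with 8 different ends. Its region, at chrIV:3336615-3336974, was 360 bp wide with the summit 125 bp past the gene end, or 438 bp past the earliest of the transcript ends. The signal was 180.9 at rank 24 in the thresholded list and 179.5 at rank 22 in the pooled list. In replicate 3 it was 110.1 at rank 17 with the summit 150 bp past the end, and in replicate 4 it was 78.6 at rank 25 with the summit 115 bp past it. Both replicates placed the entry among their first 25.

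nap-1 encodes a nucleosome assembly protein, a chaperone that carries histones to and from DNA. The gene (WBGene00017075) lies at chrIV:8377705-8379319 on the minus strand and has 1 annotated transcript. Its region, at chrIV:8377406-8377765, was 360 bp wide with the summit 119 bp past the gene end. The signal was 173.9 at rank 27 in the thresholded list, the lowest of the 5, and 181.2 at rank 20 in the pooled list. In replicate 3 it was 103.4 at rank 25 with the summit 85 bp past the end, and in replicate 4 it was 76.7 at rank 30 with the summit 123 bp past it. A second, weaker entry lay just inside the gene end in the candidate lists. Its summit was 111 bp inside in the pooled list (signal 43.1, rank 3123), 123 bp inside in replicate 3 (26.2, rank 3602) and 88 bp inside in replicate 4 (17.4, rank 9821).

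zip-2 encodes a basic leucine zipper (bZIP) transcription factor known for its part in the response of the intestine to infection, a role other than the general upkeep that the other 4 genes serve. Whether the 5 genes are housekeeping genes could not be checked here, since region lists carry no expression values. The gene (WBGene00019327) lies at chrIII:832982-835814 on the plus strand in the Ensembl annotation, with 3 transcripts and 2 different ends, whereas its RefSeq record runs from 834088 to 835811. Its region, at chrIII:836038-836128, was 91 bp wide, the narrowest width in the thresholded list. The matching entry was 187 bp wide in the pooled list, 356 bp in replicate 3 and 360 bp in replicate 4. The thresholded summit lay 261 bp past the Ensembl end and 264 bp past the RefSeq end. The signal was 200.4 at rank 16 in the thresholded list and 187.6 at rank 18 in the pooled list. In replicate 3 it was 125.0 at rank 9, and in replicate 4 it was 60.7 at rank 99, the widest spread of replicate ranks among the 5 genes. The position differed little, with the summit 252 bp past the end in replicate 3 and 261 bp past it in replicate 4.

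**Figure D1:**
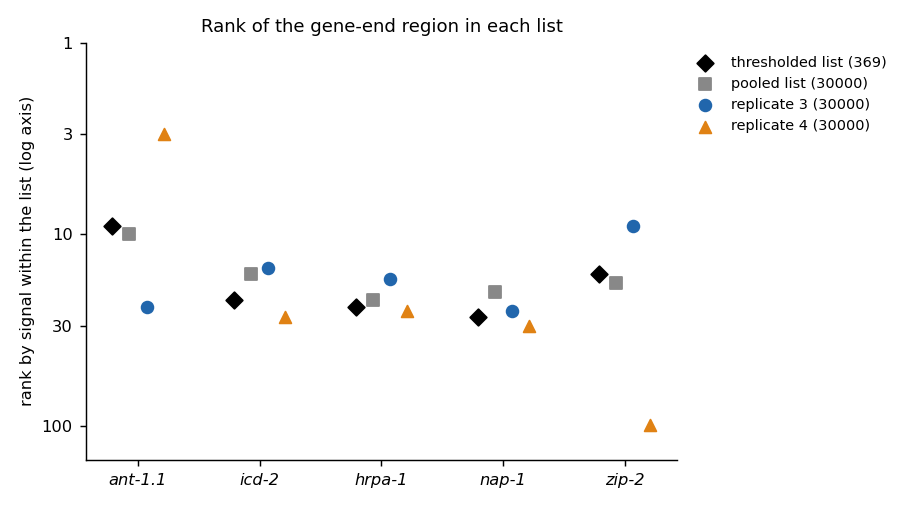
Rank by signal (log axis, 1 at the top) of the gene-end entry of each of the 5 genes in the thresholded, pooled, replicate 3 and replicate 4 lists, whose sizes are in the legend. The entries of ant-1.1, icd-2, hrpa-1 and nap-1 rank between 3 and 30 in every list, and zip-2 ranks 9 in replicate 3 and 99 in replicate 4.

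Set against the whole list, the member regions were strong but not the strongest. Their thresholded signals ran from 173.9 to 221.2 with a median of 186.9, and all 369 thresholded regions ran from 87.7 to 393.9 with a median of 105.6. The 157 thresholded regions with a summit in an end window, members included, ran from 87.7 to 277.3 with a median of 103.1. In replicate 3 the member entries had ranks of 9 to 25 with a median of 17.0, and in replicate 4 ranks of 3 to 99 with a median of 27.0. The entries that matched the other 152 end-window regions had median ranks of 210.0 in replicate 3 and 209.5 in replicate 4. The replicate summits of a member region lay 2 to 72 bp apart, with a median of 35.0 bp, and those of the other 152 regions had a median distance of 38.0 bp with quartiles of 15.8 and 71.2 bp. The deposited −log10 q-value of the 5 end regions was 2.40 in the thresholded list, so it does not separate them.

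The rest of each gene held weaker entries, none of which reached the thresholded list. For ant-1.1, the highest entry outside the end window lay at the gene start, with its summit 68 bp upstream, a pooled signal of 60.2 and rank 976. That start entry had a signal of 45.8 and rank 443 in replicate 3, 71 bp upstream. In replicate 4 the highest entry outside the end window lay 106 bp inside the start, with a signal of 17.8 and rank 9217, so the start of ant-1.1 ranked high in 1 of the 2 replicates. For icd-2 the highest such entry also lay upstream of the start, by 390 bp in the pooled list (45.8, rank 2484), by 370 bp in replicate 3 (29.7, rank 2210) and by 878 bp in replicate 4 (24.4, rank 2931).

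In hrpa-1 and zip-2, as annotated by Ensembl, the highest entry outside the end window lay in the gene body. For hrpa-1 it was 663 bp from the start in the pooled list (signal 37.6, rank 5223) and in replicate 3 (27.2, rank 3156), but 1304 bp from the start in replicate 4 (24.4, rank 2897). For zip-2 it was 1551 bp from the Ensembl start in the pooled list (47.3, rank 2212), 2119 bp from it in replicate 3 (31.8, rank 1680) and 891 bp from it in replicate 4 (32.0, rank 995). With the later RefSeq start of zip-2, that replicate 4 entry lies 215 bp upstream of the gene, in its start window. The replicates thus differed in where they placed the highest such entry of both genes. nap-1 had no pooled entry outside its end window, and its only other entry was 739 bp upstream of the start in replicate 3 (19.3, rank 10625).

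**Figure D2:**
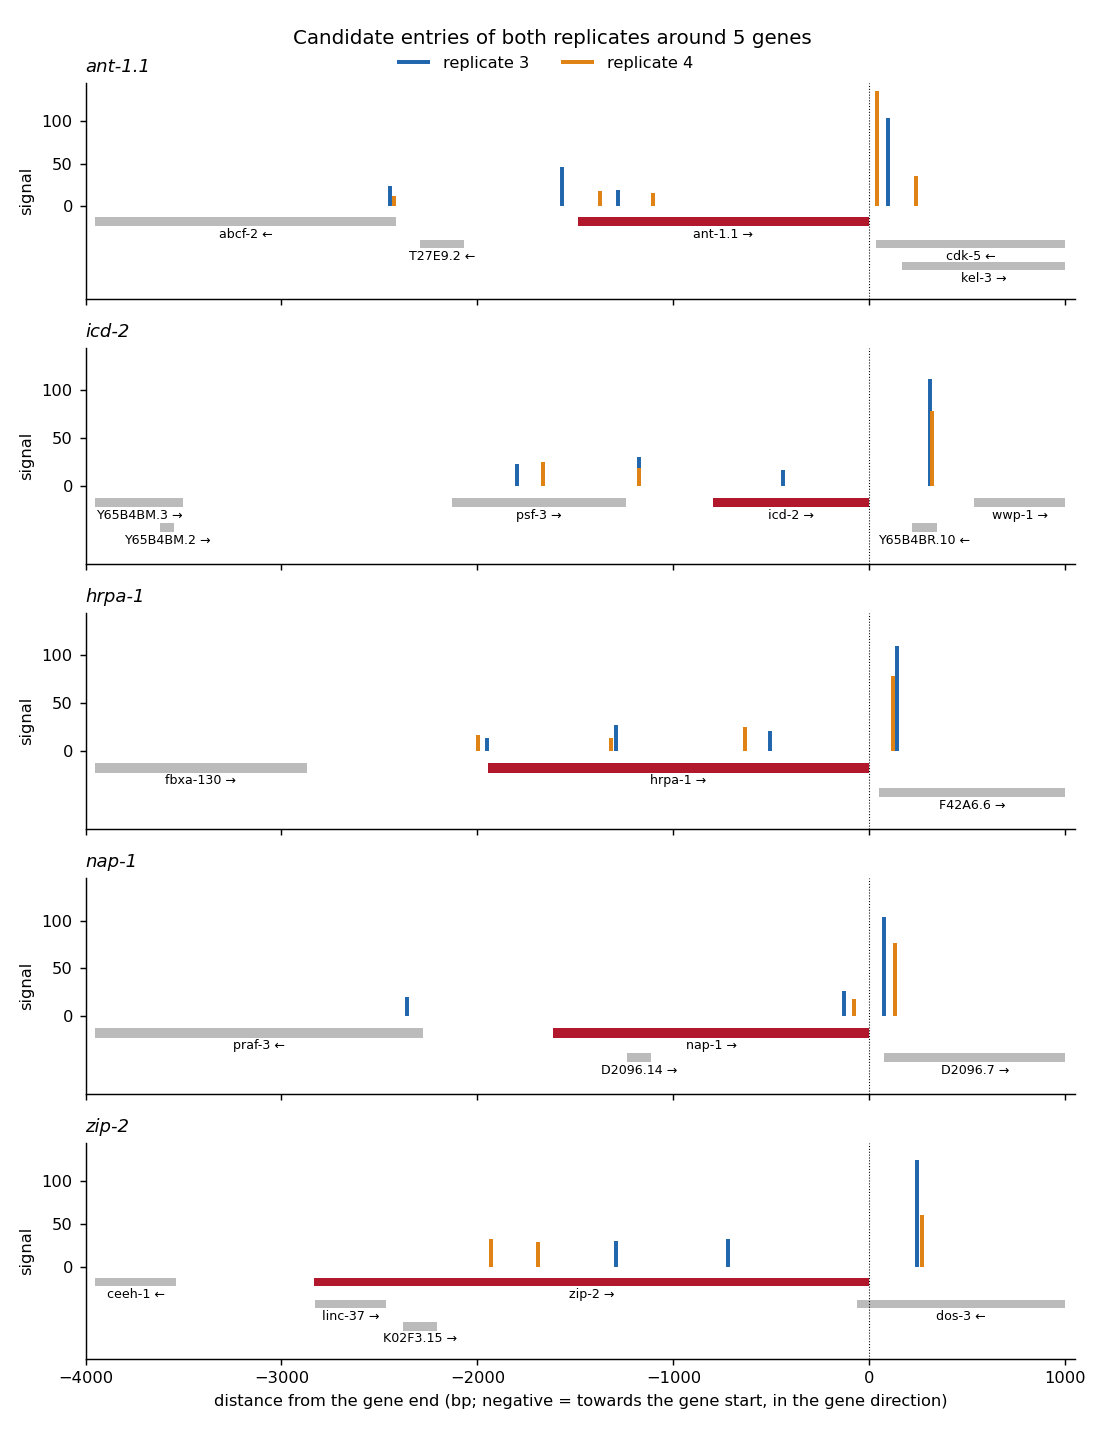
Candidate entries of replicate 3 (blue) and replicate 4 (orange) around each gene, drawn as lines at the summit with the authors' signal as height, against distance from the gene end in bp along the gene's own direction. Red bars are the member genes, grey bars their neighbours with arrows for same or opposite strand, and the lines of the 2 replicates are shifted apart by a few bp; entries are drawn from 1000 bp upstream of the gene start to 500 bp past its end, and bars that reach the edge continue beyond it. In every panel the highest line of both replicates stands to the right of the gene end.

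The contrast between the end and the start of the same gene was measured with the highest pooled signal in each window. The 5 members had end signals of 179.5 to 223.0 with a median of 187.6. Their start signals were 60.2 for ant-1.1, 45.8 for icd-2, 29.2 for hrpa-1 and 27.4 for zip-2, and nap-1 had no entry in its start window. The zip-2 value rests on the Ensembl start. From the RefSeq start that entry lies 1561 bp upstream, outside the window, and an entry of 26.5 lies 178 bp upstream. The end was therefore higher than the start in 4 of 4 members with both values. The members were chosen for a strong end summit, so this count largely follows from the choice and is a description. Among all protein-coding genes with an entry in both windows the end was higher in 1396 of 2563 (54.5%). The start window is longer than the end window, and in very short genes the same entry can count for both. Over all protein-coding genes, the 5445 with an entry in the end window had a median signal of 30.8, and the 6545 with an entry in the start window had a median of 28.4. The start signals of hrpa-1 and zip-2 were thus near the median of all genes with a start entry, and that of ant-1.1 was the highest of the 4.

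**Figure D3:**
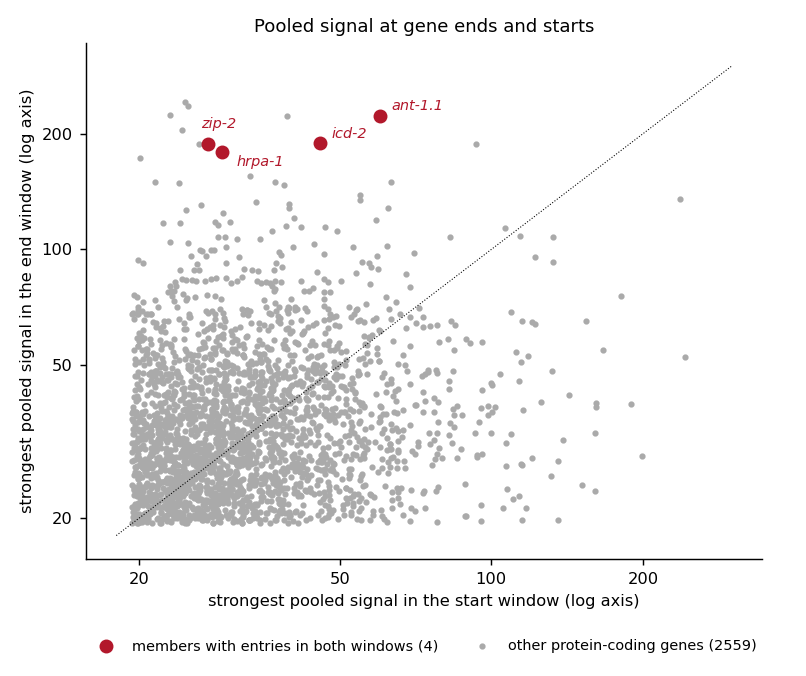
Highest pooled signal in the end window against the highest in the start window (both log axes), for 4 members in red and the 2559 other protein-coding genes with an entry in both windows in grey; the dotted line marks equal values. The members lie at end signals of 179.5 to 223.0 and start signals of 27.4 to 60.2, with zip-2 placed by its Ensembl start. nap-1 is not drawn because its start window held no pooled entry.

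All 5 summits lay past the annotated gene end, at 93 to 322 bp with a median of 125.0 bp. They formed a nearer set of ant-1.1, nap-1 and hrpa-1 at 93, 119 and 125 bp, and a farther pair of zip-2 and icd-2 at 261 and 322 bp. Among the other 194 genes with a thresholded summit in the end window, 172 had it past the end (88.7%), with a median over all 194 of 169.0 bp and quartiles of 87.2 and 270.0 bp. Of the other 152 regions, 41 (27.0%) lay in more than 1 end window, so a summit can count for more than 1 gene. The 194 genes include cdk-5, whose summit is that of ant-1.1. In the 5250 genes whose end window held a pooled entry but no thresholded summit, the summit was past the end in 4229 (80.6%), with a median of 207.0 bp. The window itself extends farther past the end than into the gene, so summits spread evenly over it would also fall mostly past the end.

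**Figure D4:**
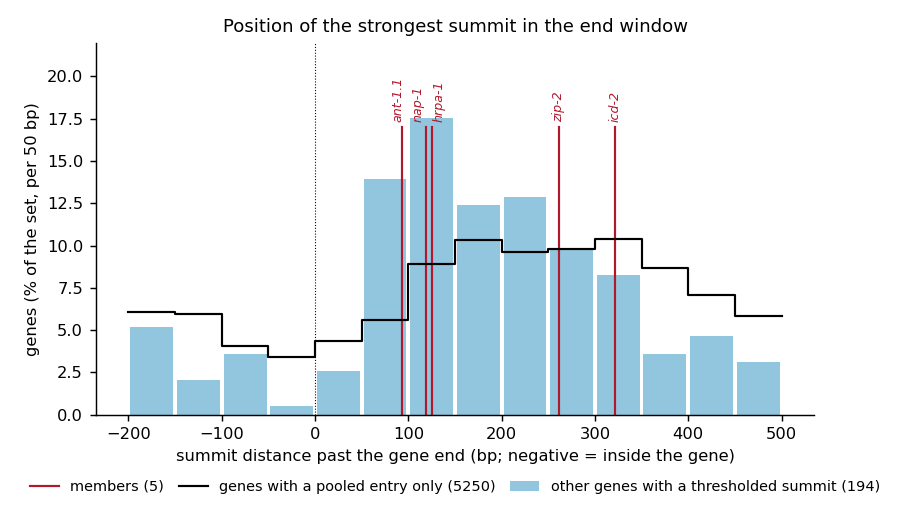
Position of the highest summit in the end window relative to the gene end (bp), as percent of genes per 50 bp, for 194 other genes with a thresholded summit (bars) and 5250 genes with a pooled entry only (black line), with the 5 members as red lines. The members lie between 93 and 322 bp past the end, where the bars also hold most genes.

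The neighbouring genes lay close to these ends, in both orientations. Of the members, 3 were followed by a gene on the same strand, across gaps of 46 bp for hrpa-1 (to F42A6.6), 74 bp for nap-1 (to D2096.7) and 534 bp for icd-2 (to wwp-1, a ubiquitin ligase gene). The other two faced a gene on the opposite strand. The end of ant-1.1 was 34 bp from the end of cdk-5, a cyclin-dependent kinase gene, and the end of zip-2 overlapped that of dos-3, which belongs to a family of Notch ligand-like proteins, by 64 bp. The gap was thus under 100 bp in 4 of 5 members (80.0%), in 69 of the other 194 genes with a thresholded end summit (35.6%) and in 5299 of 19965 protein-coding genes (26.5%). The median gap was 46 bp for the members, 234 bp for the other 194 genes and 530 bp for all protein-coding genes. The members had a median length of 1615 bp and all protein-coding genes one of 2027 bp. With 5 chosen genes these counts are a description.

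All 5 thresholded summits fell within another annotated gene. At hrpa-1 and nap-1 the summits lay 78 bp and 44 bp inside the starts of F42A6.6 and D2096.7, in coding exons, so the nap-1 summit stands just after the ATG marked in its printed sequence. The zip-2 summit lay in a coding exon near the end of dos-3, 3516 bp inside the start of that gene. It was also 981 bp upstream of the non-coding RNA gene K02F3.13. The ant-1.1 summit lay in the 3′ UTR of cdk-5, 58 bp inside the end of that gene. That position was 75 bp upstream of the start of kel-3, a gene for a kelch-repeat protein. In replicate 4 alone, the ant-1.1 summit lay 31 bp past the gene end, in the 34 bp gap before cdk-5. The icd-2 summit lay 22 bp inside the start of the non-coding RNA gene Y65B4BR.10 on the opposite strand, and 213 bp upstream of wwp-1.

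In all, 3 of 5 member summits lay in a coding exon of the neighbour (60.0%), 1 in a 3′ UTR and 1 in a non-coding gene only. No thresholded summit of a member lay outside annotated genes. Of the other 152 thresholded regions in end windows, 44 had the summit in a coding exon (28.9%) and 69 in no annotated gene (45.4%). Of 5126 other pooled entries in end windows, 1828 were in a coding exon (35.7%) and 1785 in no annotated gene (34.8%). The summits of ant-1.1, icd-2, hrpa-1 and nap-1 also fell in the start window of another protein-coding gene, that is 4 of 5 (80.0%), against 65 of the other 152 regions (42.8%). For these 4 genes, a region at the gene end and one at the start of that other gene cannot be told apart from position alone. For ant-1.1 the other gene is kel-3, and not the nearer cdk-5, which ends there. The zip-2 summit was in no start window of a protein-coding gene.

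None of the 5 member summits was within 200 bp of a tRNA, snoRNA or snRNA gene. Such a gene was that close for 33 of the other 152 thresholded regions in end windows (21.7%). The share was 99 of 5126 (1.93%) for the other pooled entries in end windows. The nearest such gene was 1234 bp away for nap-1 (the snoRNA gene D2096.14, inside nap-1), 2177 bp for icd-2 (the snoRNA gene Y65B4BR.12) and 2466 bp for zip-2 (the snoRNA gene K02F3.15, inside zip-2 in the Ensembl annotation). For ant-1.1 and hrpa-1 it was a tRNA gene 53308 and 188024 bp away. The members may have been chosen with this distance in view, so the count of 0 is a description.

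GC content was higher at the member summits than in their flanks. In the 101 bp centred on the summit the GC content was 44.6% for ant-1.1, 49.5% for icd-2, 51.5% for hrpa-1, 44.6% for nap-1 and 47.5% for zip-2. In flanks of the same length 400 bp to either side it was 38.1%, 43.6%, 34.7%, 31.2% and 27.7% for the same genes. The summit was above its flanks in 5 of 5 members, at 47.5 ± 3.05% against 35.0 ± 6.14% in the flanks (mean ± SD, n = 5 regions). The rise was smallest at ant-1.1 and icd-2 and largest at zip-2. With 100 bp on each side the difference was smaller, at 44.6 ± 2.01% against 36.4 ± 5.33% in the flanks, and at icd-2 it was 44.3% against 43.5%. In the 101 bp windows the rise was shared by the other end-window regions, of which 111 of 152 (73.0%) were above their flanks. Their medians were 44.1% at the summit and 36.9% in the flanks. Of all 369 thresholded regions, 310 (84.0%) were above their flanks, with medians of 47.5% and 35.6%, so the members' summit median of 47.5% was that of the whole list. Among 29559 pooled entries that overlapped no thresholded region, 22277 (75.4%) were above their flanks, with medians of 42.6% and 35.6%.

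**Figure D5:**
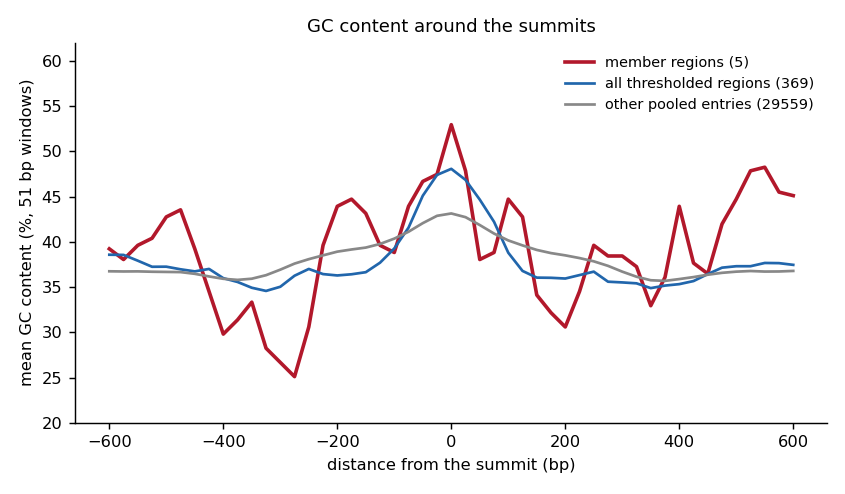
Mean GC content (%) in 51 bp windows against distance from the summit (bp), for the 5 member regions in red, all 369 thresholded regions in blue and 29559 other pooled entries in grey. All 3 lines peak at the summit, at 52.9% for the members, 48.1% for the thresholded regions and 43.1% for the other entries, and the red line is uneven because it averages only 5 regions.

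Short motifs were searched in the same 101 bp on both strands. AATAAA, the poly(A) signal, was found at 1 of 5 member summits, in 26 of 152 other end-window regions (17.1%) and in 12.3% of the other pooled entries. The match was at ant-1.1, 45 bp before the summit and on the strand of cdk-5. A run of TTTTT, which is also how RNA polymerase III genes end, was found at icd-2 and hrpa-1, in 46.1% of the other end-window regions and in 49.3% of the other pooled entries. GGTTCGA, a core of the internal promoter of tRNA genes, was found at 0 of 5 member summits, in 14 of 152 other end-window regions (9.21%) and in 1.44% of the other pooled entries. ACCACT and GCGCAC were searched because earlier results of these data had pointed to them. ACCACT was found at 1 member, hrpa-1, in the stretch printed above and on the other strand. It was found in 9.87% of the other end-window regions, 18.4% of all thresholded regions and 4.34% of the other pooled entries. GCGCAC was found at no member, and in 3.29%, 7.32% and 2.48% of the same sets. A match or its lack describes these letters in this window and not a bound factor.

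The ends of the genes themselves carried a plain poly(A) signal in most cases. AATAAA on the gene's strand was present in the last 50 bp of 4 members, beginning 19 bp before the end of ant-1.1, 21 bp before that of nap-1, 24 bp before that of zip-2 and 27 bp before that of hrpa-1. icd-2 had none. Among all protein-coding genes 9620 had it (48.2%), and among the other 194 genes with a thresholded end summit 84 had it (43.3%). The member regions were also unique in sequence. None of the 95, 330, 330, 330 and 61 stretches of 31 bases in the regions of ant-1.1, icd-2, hrpa-1, nap-1 and zip-2 occurred elsewhere in the genome, and the same was true of 124 of the other 152 end-window regions (81.6%).

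Genes related to the members were counted beside the background share of 0.996% of all protein-coding genes with a thresholded end summit. Of the 4 adenine nucleotide translocase genes only ant-1.1 had a thresholded end summit, and ant-1.2, ant-1.3 and ant-1.4 had no pooled entry in either window. icd-1, which encodes the beta subunit of the complex that holds the icd-2 product, had no thresholded summit but ranked 385 in the pooled list, with a signal of 82.1 and its summit 54 bp past the end. The strongest icd-1 end entry had a signal of 60.6 at rank 188 in replicate 3 and of 51.3 at rank 176 in replicate 4. Its summit lay 197 bp past the end in replicate 3 and 12 bp past it in replicate 4, so the replicates differed in position. The icd-1 values were singled out after they had been seen. The neighbour of icd-1, C56C10.7, follows on the same strand after 1 bp.

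Among the hnRNP-type genes, 1 of the 8 other than hrpa-1 had a thresholded end summit. This was hrpu-1, of the hnRNP U type, with a signal of 97.9 at rank 238, its summit 267 bp past the end, and signals of 41.5 in replicate 3 and 46.4 in replicate 4. Among the histone chaperone genes, 0 of the 11 other than nap-1 had one. Among the bZIP genes, 1 of the 29 other than zip-2 had one, atf-7, another regulator of the response to infection. Its thresholded signal was 104.5 at rank 192, with the summit 103 bp past the end. The strongest replicate 3 entry in the atf-7 end window had a signal of 69.4, 106 bp past the end. In replicate 4 the strongest such entry, with a signal of 59.4, lay 356 bp past the end, so the replicates differed in position. No gene of these lists had a thresholded start summit, and the background share for that is 0.806%. The related genes with a pooled end entry had median end signals of 32.8 (7 hnRNP-type genes), 32.4 (8 histone chaperone genes) and 37.1 (15 bZIP genes), beside 30.8 for all protein-coding genes with such an entry.

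Other genes had end regions as strong as those chosen. At or above the lowest member signal of 173.9 there were 15 other genes, of which 6 had no small RNA gene within 200 bp of the summit, and 1 of these was above the highest member. That gene was acs-19, with a signal of 246.0 at rank 6 and its summit 443 bp past its end, in front of rpl-3, which encodes a ribosomal protein and starts 313 bp farther on. cdk-5 shares the region of ant-1.1. The convergent genes hsp-1, for a heat shock protein of the HSP70 family, and nra-1 shared a region at chrIV:17281274-17281519, with a signal of 197.2 at rank 18 and the summit 55 and 70 bp past their ends. lelo-2 and its convergent neighbour Y82E9BR.3 shared a region with a signal of 182.1 at rank 23, its summit 147 bp inside the end of lelo-2 and 133 bp past that of Y82E9BR.3, which was named after its values were seen.

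Likeness to each member was measured as the Euclidean distance over log10 pooled end signal, log10 pooled start signal and summit distance past the end in units of 100 bp, among 2559 other genes with an entry in both windows. The gene most like hrpa-1 was cyn-3, a cyclophilin gene, at a distance of 0.15. In the pooled list, which the measure used, cyn-3 had a signal of 223.9 at 152 bp past the end, and hrpa-1 179.5 at 147 bp. In the thresholded list cyn-3 had a signal of 217.8 at rank 11, with its summit 114 bp past the end. Unlike the hrpa-1 summit, that thresholded summit of cyn-3 lay within a snoRNA gene, Y75B12B.12. For zip-2, with its Ensembl start, it was alh-3, an aldehyde dehydrogenase gene, at 0.16. alh-3 had a thresholded signal of 136.9 and its summit 265 bp past the end. For ant-1.1 it was top-2, a topoisomerase gene, at 0.27, with a thresholded signal of 125.1 and its summit 88 bp past the end. For icd-2 it was mnk-1, a kinase gene, at 0.32, with a thresholded signal of 105.4 and replicate ranks of 49 in replicate 3 and 1218 in replicate 4. nap-1 had no start entry and so no such match.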

How the data were processed

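Whole-worm ChIP-seq regions of tagged T26A5.8 were analysed from region lists, 1 list for each of 2 biological replicates, 1 pooled list and 1 thresholded list. Per the deposited notes, the replicate and pooled lists hold peaks and background regions made with a control and passed on to an irreproducible discovery rate (IDR) step, and the thresholded list was derived from them. Neither aligner nor peak caller is given in the sources used here. The signal in the deposited lists is the authors' own value, of unstated scaling, and was used only to describe and rank entries within a list. The −log10 q-value is likewise as the authors deposited it. Read depth is unknown, because the lists hold no counts.

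Lists on ce11 were placed on Ensembl release 115 genes by summit (python 3.11.15, pandas 2.3.3, numpy 2.4.6, figures with matplotlib 3.10.9), with 46890 genes, of which 46881 matched a RefSeq record. All 369 thresholded and 30000 entries per other list lay within the chromosomes. The placing of summits was checked on simulated data. Small RNA genes were the 1087 tRNA, snoRNA and snRNA genes. Of 31 bZIP names, 30 were found (not atf-5), and this list also holds ces-1, a zinc finger gene entered in error, which had no entry in either window. The genes named were the 5 members, the genes at or next to their summits, related genes with a thresholded summit, the 5 other genes with the highest end signal and no small RNA gene within 200 bp, and the gene most like each member; icd-1 was added after its values were seen. The members, lists and windows were chosen with earlier results of these data known. No test was run, since the members were chosen by the values described. Nothing in the labels says whether the 2 replicates came from separate cultures beyond calling them biological replicates.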

Additional observations from a re-analysis of the deposited data

How the results depend on the processing

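All 5 members kept a summit in the end window under the other windows, gene ends, overlap rule, stricter threshold and single-replicate lists tried. This was largely fixed by the choice, since the members were picked for strong summits there and each other window still held 0 to 500 bp past the end. The single-replicate lists were the 369 strongest entries of each replicate, not thresholded regions. In the start window 0 members had a summit under the 2 other windows, the stricter threshold and the single-replicate lists. Other gene starts were not tried for the start window. The count of protein-coding genes with an end summit was 97 with the stronger part of the list above its median signal, against 199, and ran from 190 to 216 with the strongest entries of 1 replicate list. The count with a start summit, 161, was 97 in a window of 500 bp upstream to 100 bp downstream, 268 in one of 2000 bp upstream to 500 bp downstream, 81 with that stronger part, and 154 to 155 with 1 replicate. The median GC content at member summits, 47.5%, was 44.3% with 100 bp and 51.0% with 25 bp on each side. With 1 replicate, the rank of zip-2 ran from 9 to 99 and the distance of ant-1.1 past its end from 31 to 103 bp. In a comparison added after the data had been seen, each member region had 1 entry of the same signal (within 0.05), width and rank in the thresholded list on build ce10, which held 609 regions. A count of genes was taken as moved when it changed by over 1.5 times, a member's distance or rank when it changed by more than the SD of its 2 replicate values, and a median when it changed by more than the SD of the values behind it. By these rules 6 summary values and 12 single-gene values moved, 31 and 28 did not, and 0 changed direction. The SD of a member's 2 replicate values is small where they lie close, and single-replicate values were judged against an SD made from themselves. With the pooled summit, icd-2 counted as moved at 315 against 322 bp, and ant-1.1 as the same at 73 against 93 bp. The single-gene counts are therefore no measure of stability. No paired analysis was possible because there is 1 group. The small number of replicates and the unknown depth limit what differences between replicate values can show.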

Other observations

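zip-2 (in the Ensembl annotation) and nap-1 each hold a snoRNA gene, and no list had a summit within 200 bp of either. For zip-2 this is K02F3.15 at chrIII:833435-833609, which lies upstream of the RefSeq record of zip-2, and for nap-1 it is D2096.14 at chrIV:8378820-8378941. The thresholded regions of zip-2 and nap-1 stand past the gene end instead. Near icd-2, the snoRNA gene Y65B4BR.12 had a pooled summit within 200 bp, with a signal of 24.1 at rank 19262, and entries of at most 19.2 in replicate 3 and none in replicate 4. At these 3 snoRNA genes the entries, where there were any, were far below the gene-end entries of zip-2, nap-1 and icd-2 in the same lists.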
